A study of Homo sapiens with 12 samples.

Results

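Cholesterol synthesis, sterol transport and their control by the SREBP transcription factors were followed through 29 listed genes, chosen by name from the table of expression values. Of these, 28 had a row of their own among 24556 symbols. The genes were listed with earlier results of these data known. Their shares are therefore set beside those of all tested genes as a description. TM7SF2, a sterol reductase, was present only in a row merged with its neighbour VPS51. Of the 28, 27 passed a filter at a mean of 1 FPKM and were tested with 11929 genes in all; ABCG1 did not pass. FPKM scales the fragments of a gene to its transcript length and to the size of the library, so levels can be set side by side between genes.

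Cells make cholesterol from acetyl-CoA through mevalonate, farnesyl diphosphate, squalene and lanosterol. When sterols are scarce in the endoplasmic reticulum, the escort protein SCAP carries SREBP to the Golgi, where it is cut and released to switch on the genes of synthesis and uptake; when sterols are plentiful, INSIG proteins hold SCAP back. Oxysterol-activated LXR receptors switch on the opposite arm, with the efflux pumps ABCA1 and ABCG1 and the ubiquitin ligase MYLIP, which removes lipoprotein receptors.

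The RNA came from LM2, a lung-seeking subline of the MDA-MB-231 human breast cancer cells, grown in DMEM with 10% FBS. There were 4 groups of 3 libraries: cells transduced with EZH2 shRNA, cells transduced with scramble shRNA, cells transfected with ZRANB1 siRNA and cells transfected with scramble siRNA. EZH2 is the histone H3 lysine 27 methyltransferase of Polycomb repressive complex 2, ZRANB1 is an OTU-family deubiquitinase, and each shRNA or siRNA was compared with the scramble RNA delivered in the same way. The labels name no harvest time, no number of hairpins or duplexes and no separate cultures within a group, so the p-values rest on a spread between samples that could be technical.

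Within every row the 3 values of a group were sorted as text, so no value can be traced to a library, and values run here from low to high. Depth is unknown, as FPKM values alone were used. EZH2 averaged 16.5 ± 0.681 FPKM with EZH2 shRNA and 35.4 ± 1.07 FPKM with scramble shRNA (SD, n = 3 each). ZRANB1 averaged 10.0 ± 1.31 FPKM in the libraries labelled ZRANB1 siRNA and 11.4 ± 0.795 FPKM with scramble siRNA, a difference that limma did not call (adjusted p = 0.349), so a lower level of the target was not shown in them. EZH2 was also lower in these libraries, at 30.4 ± 2.08 FPKM against 48.6 ± 2.097 FPKM with scramble siRNA (limma adjusted p = 5.43e-05). Of 4 markers of this mesenchymal breast cancer line, VIM, CD44, KRT8 and KRT18, all were above 1 FPKM in every group, summing to between 3296 and 3561 FPKM, most of it VIM. CD44 differed between groups: it averaged 206 ± 10.9 FPKM with ZRANB1 siRNA and 118 ± 8.84 FPKM with scramble siRNA, without overlap, and 261 ± 26.1 FPKM with EZH2 shRNA and 264 ± 15.2 FPKM with scramble shRNA; its part in the results was not tested. The epithelial keratins KRT8 and KRT18 averaged 184 to 267 FPKM and 247 to 353 FPKM. They were not in the luminal list, which held GATA3, FOXA1, ESR1 and EPCAM. Each list of luminal, endothelial, fibroblast and hepatocyte markers summed to at most 12.5 FPKM in any group. The leukocyte markers PTPRC and CD3E averaged at most 0.0224 FPKM, while CD68 averaged 34.4 to 41.7 FPKM in all groups.

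The RNAs of the synthesis pathway were lower in the libraries labelled ZRANB1 siRNA than with scramble siRNA at most steps, and those that fell were at 57.1% to 73.7% of the control mean. Of the 27 tested members, 17 fell, 2 rose and 8 did not pass the test, which called a gene at an adjusted p below 0.05. Among all tested genes 6.5% were called lower and 10.1% higher in this comparison. The members' median log2 fold change was -0.53, beside -0.017 over all tested genes. In 20 members the groups did not overlap and ZRANB1 siRNA was lower, in 2 it was higher and in 5 the groups overlapped, where groups did not overlap for 18% (lower) and 18.5% (higher) of all tested genes. In bulk RNA, fewer cells of a kind and less RNA per cell cannot be told apart.

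With EZH2 shRNA, 4 of the 27 tested members were called, where 6.41% of all tested genes were called. ACAT2, SQLE and INSIG1 fell and ABCA1 rose, beside 3.03% of all tested genes called lower and 3.39% higher. The members' median log2 fold change was -0.076, beside -0.014 over all tested genes. Groups did not overlap in 7 members that were lower and 2 that were higher, beside 11.6% and 10.6% of all tested genes, and 18 members overlapped. Fold changes here and below are on the scale of log2(FPKM + 1), which understates the change of low genes.

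**Figure D1:**
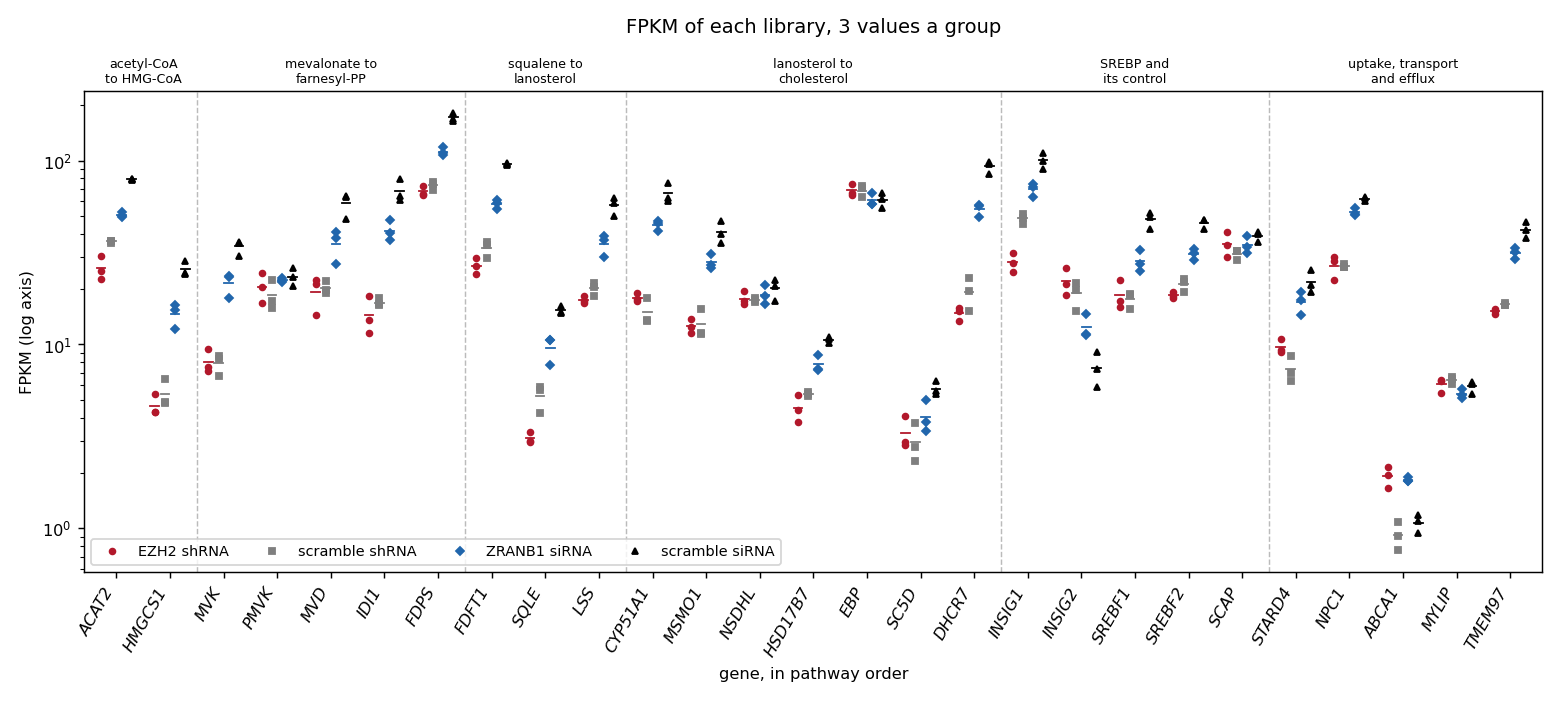
FPKM of every library for the 27 tested genes in pathway order on a log axis, with 3 points per group and a short line at the group mean. In 23 of the 27 genes the scramble siRNA mean is the highest of the 4, as for 40.1% of all tested genes, while EBP and MYLIP lie within a narrow band in all groups.

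The 2 enzymes that lead from acetyl-CoA to HMG-CoA both fell with ZRANB1 siRNA, and ACAT2 also fell with EZH2 shRNA. ACAT2, the thiolase that joins acetyl-CoA units in the cytosol, was at 22.6, 25.04 and 30.2 FPKM with EZH2 shRNA, against 35.8, 36.7 and 36.7 FPKM with scramble shRNA. In the libraries labelled ZRANB1 siRNA it was at 49.2, 50.1 and 52.5 FPKM, against 78.8, 79.1 and 79.9 FPKM with scramble siRNA. All 3 values lay below the control range in each comparison. The log2 fold change was -0.48 (SE 0.09, adjusted p = 0.00912 by limma) with EZH2 shRNA and -0.64 (SE 0.09, adjusted p = 4.87e-04) with ZRANB1 siRNA. The EZH2 shRNA call was lost when the 6 values of that comparison were fitted alone (adjusted p = 0.109). ACAT2 overlaps TCP1 on the other strand and the strand setting was not given; TCP1 averaged 108 ± 14.5 FPKM with EZH2 shRNA and 120 ± 9.81 FPKM with scramble shRNA, and was not called in this comparison (adjusted p = 0.478). TCP1 averaged 152 ± 14.01 FPKM with ZRANB1 siRNA and 177 ± 13.9 FPKM with scramble siRNA, lower without overlap but not called (log2 difference -0.23, adjusted p = 0.189), and it was called higher with scramble siRNA than with scramble shRNA (148% of the mean, adjusted p = 0.00112). These are the directions of ACAT2, and the part of shared fragments in its values was not tested.

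HMGCS1, the synthase that makes HMG-CoA, was at 4.27, 4.29 and 5.39 FPKM with EZH2 shRNA, against 4.82, 4.87 and 6.49 FPKM with scramble shRNA. It was at 12.1, 15.4 and 16.4 FPKM in the libraries labelled ZRANB1 siRNA, against 24.2, 24.3 and 28.4 FPKM with scramble siRNA. The shRNA groups overlapped and the siRNA groups did not. Its log2 fold change of -0.77 (95% interval -1.07 to -0.48, adjusted p = 0.0024 by limma) was the lowest of the members in the ZRANB1 siRNA comparison, and with EZH2 shRNA it was -0.17 (-0.47 to 0.12).

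From mevalonate to farnesyl diphosphate, 4 of 5 genes fell in the libraries labelled ZRANB1 siRNA and 0 of 5 were called by limma with EZH2 shRNA (0 also at an unadjusted p below 0.05). MVK, the mevalonate kinase, was at 7.14, 7.58 and 9.49 FPKM with EZH2 shRNA, against 6.76, 8.35 and 8.63 FPKM with scramble shRNA. It was at 17.8, 23.2 and 23.5 FPKM with ZRANB1 siRNA, against 30.4, 35.8 and 36.3 FPKM with scramble siRNA. MVK overlapped between the shRNA groups and not at all between the siRNA groups, where the log2 fold change was -0.65 (adjusted p = 0.00664 by limma). FDPS, the synthase of farnesyl diphosphate and the member with the highest level in 3 of the 4 groups, was at 64.8, 66.2 and 72.9 FPKM with EZH2 shRNA, against 69.3, 74.4 and 76.4 FPKM with scramble shRNA. FDPS stood at 108, 109 and 118 FPKM in the libraries labelled ZRANB1 siRNA, against 165, 168 and 182 FPKM with scramble siRNA. Its fall of 0.62 on the log2 scale with ZRANB1 siRNA had the lowest adjusted p of the members, 1.29e-04.

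IDI1, the isomerase of isopentenyl diphosphate, averaged 41.7 ± 5.22 FPKM with ZRANB1 siRNA and 68.4 ± 9.94 FPKM with scramble siRNA (SD, n = 3 each; adjusted p = 0.00903 by limma). MVD, which decarboxylates the diphosphate of mevalonate, averaged 35.4 ± 7.07 FPKM with ZRANB1 siRNA and 58.7 ± 9.09 FPKM with scramble siRNA. MVD was called with an adjusted p of 0.0189, which ran to 0.0754 when 1 value was left out. The exception of this stretch was PMVK, the phosphomevalonate kinase, at 21.9 to 22.98 FPKM with ZRANB1 siRNA and 20.7 to 26.1 FPKM with scramble siRNA. Its log2 difference was -0.06, with a 95% interval of -0.37 to 0.26, so a fall of the size seen for FDPS lay outside the interval. With EZH2 shRNA, IDI1 averaged 14.5 ± 3.48 FPKM against 16.9 ± 0.823 FPKM with scramble shRNA, MVD 19.3 ± 4.27 FPKM against 20.3 ± 1.57 FPKM and PMVK 20.6 ± 3.89 FPKM against 18.5 ± 3.42 FPKM, and the groups overlapped for each of these 3 genes.

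The 3 genes that lead from farnesyl diphosphate to lanosterol all fell with ZRANB1 siRNA, and all lay below the control range with EZH2 shRNA, where SQLE alone was called. SQLE, the squalene epoxidase and a rate-limiting step of the pathway, was at 2.94, 2.98 and 3.36 FPKM with EZH2 shRNA, against 4.22, 5.64 and 5.90 FPKM with scramble shRNA. It was at 7.73, 10.5 and 10.6 FPKM with ZRANB1 siRNA, against 14.7, 15.1 and 16.1 FPKM with scramble siRNA. SQLE had the lower value in every library of both treated groups, and its log2 fold changes were -0.60 (adjusted p = 0.0184 by limma) with EZH2 shRNA and -0.63 (adjusted p = 0.00577) with ZRANB1 siRNA. The EZH2 shRNA call held in 8 of 12 fits that left out 1 value, with an adjusted p of up to 0.0752, and was lost with the 6 values alone (0.0851).

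FDFT1, the squalene synthase, was at 24.2, 26.7 and 29.6 FPKM with EZH2 shRNA, against 29.7, 34.9 and 35.9 FPKM with scramble shRNA, a log2 difference of -0.31 that did not pass the test (adjusted p = 0.0688 by limma). With ZRANB1 siRNA it was at 54.5, 58.9 and 61.3 FPKM, against 94.7, 96.2 and 97.2 FPKM with scramble siRNA. Those siRNA groups stood far apart compared with their spread, with a log2 fold change of -0.71 (adjusted p = 2.52e-04). LSS, which closes the ring to lanosterol, averaged 35.3 ± 4.75 FPKM with ZRANB1 siRNA and 57.1 ± 6.47 FPKM with scramble siRNA, and was called (adjusted p = 0.00146). It averaged 17.5 ± 0.734 FPKM with EZH2 shRNA and 20.2 ± 1.65 FPKM with scramble shRNA, a difference that was not called (adjusted p = 0.338).

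**Figure D2:**
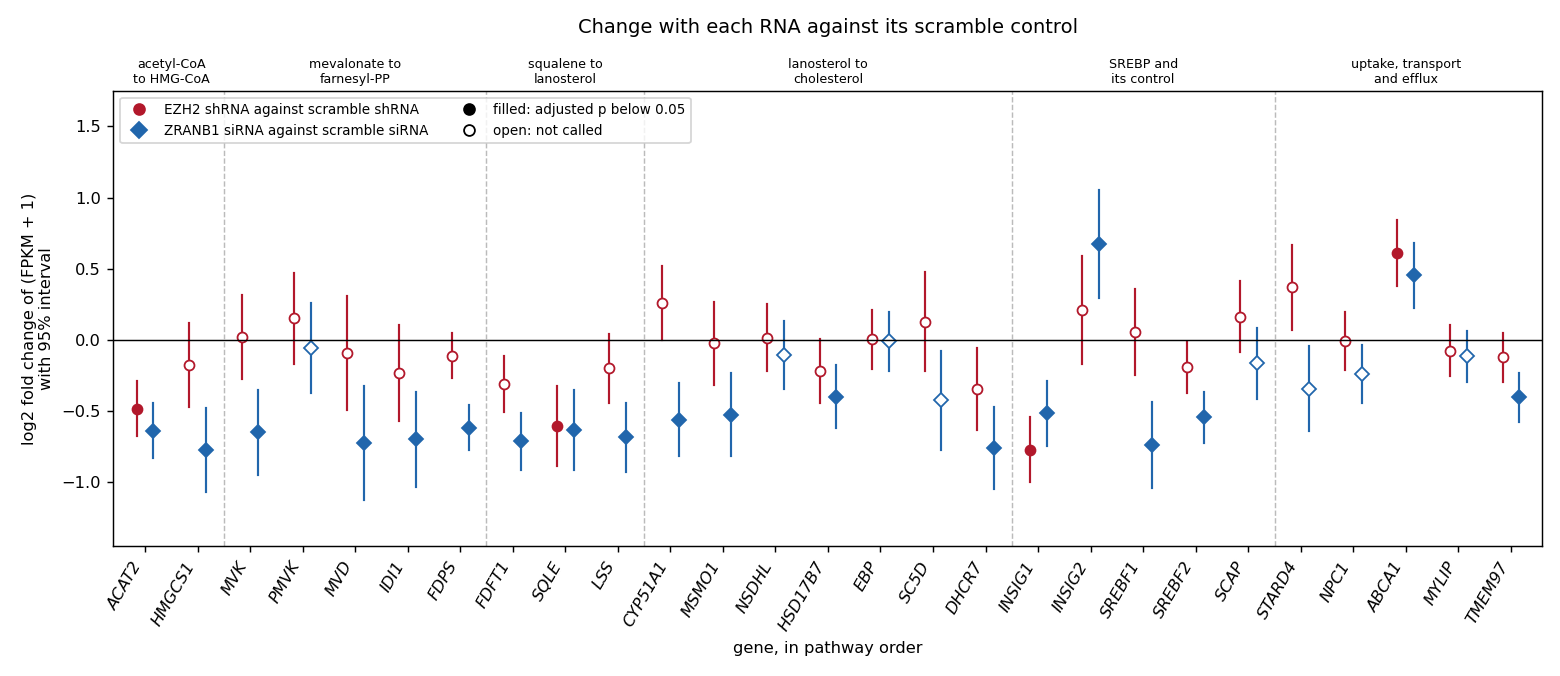
Log2 fold change of (FPKM + 1) with its 95% interval for the 27 tested genes in pathway order, EZH2 shRNA against scramble shRNA (circles) beside ZRANB1 siRNA against scramble siRNA (diamonds). Filled symbols passed an adjusted p of 0.05: 4 circles and 19 diamonds, with INSIG2 and ABCA1 as the 2 diamonds above 0.

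The steps after lanosterol were mixed. Of 7 tested genes, 4 fell with ZRANB1 siRNA, and 0 were called by limma with EZH2 shRNA, where CYP51A1 (log2 difference 0.26) and DHCR7 (-0.35) alone had an unadjusted p below 0.05. CYP51A1, the demethylase that acts first on lanosterol, was at 17.3, 17.7 and 18.98 FPKM with EZH2 shRNA, against 13.4, 13.5 and 17.9 FPKM with scramble shRNA. It was at 41.2, 45.6 and 47.0 FPKM with ZRANB1 siRNA, against 60.4, 62.8 and 76.0 FPKM with scramble siRNA. The shRNA groups overlapped at the upper end of the control, and the siRNA groups did not overlap (log2 fold change -0.56, adjusted p = 0.00711 by limma). DHCR7, the reductase that yields cholesterol, was at 13.4, 15.1 and 15.7 FPKM with EZH2 shRNA, against 15.1, 19.6 and 23.1 FPKM with scramble shRNA. DHCR7 was at 49.6, 56.7 and 57.2 FPKM with ZRANB1 siRNA, against 84.4, 95.8 and 98.9 FPKM with scramble siRNA. It fell by 0.76 on the log2 scale with ZRANB1 siRNA (adjusted p = 0.00227).

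MSMO1, a sterol methyl oxidase, averaged 28.01 ± 2.65 FPKM with ZRANB1 siRNA and 40.9 ± 5.62 FPKM with scramble siRNA, with an adjusted p of 0.0186 that ran to 0.0783 without 1 value. HSD17B7, a sterol keto-reductase, averaged 7.83 ± 0.855 FPKM with ZRANB1 siRNA and 10.6 ± 0.350 FPKM with scramble siRNA, with an adjusted p of 0.0190 that ran to 0.0751; it has a near-identical pseudogene, so the split of its reads is uncertain. SC5D, a sterol desaturase, was below the control range in every library with ZRANB1 siRNA but was not called (adjusted p = 0.0973). With EZH2 shRNA, MSMO1 averaged 12.5 ± 1.13 FPKM against 12.9 ± 2.39 FPKM with scramble shRNA, HSD17B7 4.51 ± 0.768 FPKM against 5.37 ± 0.110 FPKM and SC5D 3.30 ± 0.699 FPKM against 2.94 ± 0.712 FPKM, again with overlap in each. NSDHL, a sterol dehydrogenase, and EBP, a sterol isomerase, were called in neither comparison, and their groups overlapped in both. EBP averaged 68.9 ± 5.39 FPKM with EZH2 shRNA, 68.8 ± 5.02 FPKM with scramble shRNA, 60.9 ± 5.12 FPKM with ZRANB1 siRNA and 61.4 ± 5.61 FPKM with scramble siRNA. Its 95% interval ran from -0.20 to 0.21 with EZH2 shRNA and from -0.22 to 0.20 with ZRANB1 siRNA. For NSDHL these intervals were -0.22 to 0.25 and -0.34 to 0.13. The merged row of TM7SF2 and VPS51 averaged 43.9 ± 7.998 FPKM with EZH2 shRNA and 48.5 ± 9.97 FPKM with scramble shRNA, and 44.7 ± 7.69 FPKM with ZRANB1 siRNA and 44.3 ± 5.73 FPKM with scramble siRNA.

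Among the regulators, INSIG1 was the member with the largest fall under EZH2 shRNA. INSIG1, itself an SREBP target whose product retains SCAP, was at 24.9, 27.7 and 31.6 FPKM with EZH2 shRNA, against 45.4, 49.01 and 51.1 FPKM with scramble shRNA. It was at 63.4, 71.5 and 74.6 FPKM with ZRANB1 siRNA, against 90.6, 100.1 and 110.6 FPKM with scramble siRNA. No group overlapped its control, and the log2 fold change was -0.77 (adjusted p = 0.0015 by limma) with EZH2 shRNA and -0.52 (adjusted p = 0.00565) with ZRANB1 siRNA. The paralog INSIG2, whose product also retains SCAP, ran the other way. INSIG2 was at 18.7, 21.3 and 26.2 FPKM with EZH2 shRNA, against 15.3, 19.8 and 21.7 FPKM with scramble shRNA. In the libraries labelled ZRANB1 siRNA it was at 11.2, 11.3 and 14.6 FPKM, against 5.90, 7.32 and 9.07 FPKM with scramble siRNA. INSIG2 overlapped between the shRNA groups and rose with ZRANB1 siRNA by 0.68 on the log2 scale (adjusted p = 0.0207, up to 0.0870 without 1 value).

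SREBF2, which encodes the SREBP that mainly drives cholesterol synthesis, was at 17.9, 18.3 and 19.4 FPKM with EZH2 shRNA, against 19.4, 21.8 and 22.7 FPKM with scramble shRNA. It was at 28.7, 31.4 and 33.1 FPKM with ZRANB1 siRNA, against 42.4, 47.3 and 47.4 FPKM with scramble siRNA. Each treated group lay below its control without overlap, by a margin that was narrow for the shRNA pair. The ZRANB1 siRNA change of -0.54 was called (adjusted p = 8.89e-04 by limma) and the EZH2 shRNA difference of -0.19 was not (adjusted p = 0.204). SREBF1, which encodes the SREBP forms that mainly drive fatty acid synthesis, was at 16.01, 17.2 and 22.4 FPKM with EZH2 shRNA, against 15.6, 18.6 and 18.8 FPKM with scramble shRNA. With ZRANB1 siRNA it was at 25.1, 27.3 and 32.6 FPKM, against 42.3, 49.5 and 51.8 FPKM with scramble siRNA. SREBF1 overlapped between the shRNA groups and fell with ZRANB1 siRNA by 0.74 on the log2 scale (adjusted p = 0.00351). SCAP averaged 34.8 ± 3.99 FPKM with ZRANB1 siRNA and 39.0 ± 2.50 FPKM with scramble siRNA, and was not called (adjusted p = 0.376). With EZH2 shRNA SCAP averaged 35.1 ± 5.42 FPKM, against 31.1 ± 1.90 FPKM with scramble shRNA, also not called (adjusted p = 0.454). The rows of the microRNAs MIR33A and MIR33B, which lie in introns of SREBF2 and SREBF1, were listed at 0 in every library. Whether these libraries hold RNAs this short was not tested, so a listed 0 does not show that they were absent.

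The windows before the start sites of 4 members are shown for the letters they carry. Those of SREBF2, FDPS and MVK carry CCAAT, the letters of NF-Y, a partner of SREBP, and that of SREBF2 also holds the SRE letters. Of the letters searched, ABCA1 holds an E-box alone. Which factors read that E-box was not tested, and elements read by LXR were not searched for. The windows are the 250 bases before the annotated start, from RefSeq on GRCh38.p14, a later build than the hg19 used for the deposited values. Capitals mark TCACNCCAC, the core of the sterol regulatory element (SRE), CCAAT, the NF-Y box, also as ATTGG on the opposite strand, and CACGTG, an E-box; none of these matches overlap each other in the windows shown. The windows of SREBF2 (chr22:41832855-41833104), FDPS (chr1:155308616-155308865) and MVK (chr12:109573544-109573793) are from the plus strand and that of ABCA1 (chr9:104928156-104928405) is from the minus strand. SREBF2 is the member that the rule for shown windows picked; the other 3 were chosen after the values were seen.
SREBF2: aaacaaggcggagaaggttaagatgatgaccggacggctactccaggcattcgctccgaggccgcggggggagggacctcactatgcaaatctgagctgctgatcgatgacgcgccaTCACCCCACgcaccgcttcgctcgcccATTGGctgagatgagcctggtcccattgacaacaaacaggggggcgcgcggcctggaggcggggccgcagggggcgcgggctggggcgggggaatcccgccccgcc
FDPS: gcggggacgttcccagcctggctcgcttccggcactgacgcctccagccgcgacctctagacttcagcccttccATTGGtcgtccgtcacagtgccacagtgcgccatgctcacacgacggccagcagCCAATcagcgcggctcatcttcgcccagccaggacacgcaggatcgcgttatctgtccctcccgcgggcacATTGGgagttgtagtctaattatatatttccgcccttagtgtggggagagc
MVK: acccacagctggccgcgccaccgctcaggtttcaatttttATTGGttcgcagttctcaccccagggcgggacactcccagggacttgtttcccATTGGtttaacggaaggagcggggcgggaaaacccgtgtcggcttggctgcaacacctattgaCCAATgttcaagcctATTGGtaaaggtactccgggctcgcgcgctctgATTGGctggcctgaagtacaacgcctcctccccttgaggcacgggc
ABCA1: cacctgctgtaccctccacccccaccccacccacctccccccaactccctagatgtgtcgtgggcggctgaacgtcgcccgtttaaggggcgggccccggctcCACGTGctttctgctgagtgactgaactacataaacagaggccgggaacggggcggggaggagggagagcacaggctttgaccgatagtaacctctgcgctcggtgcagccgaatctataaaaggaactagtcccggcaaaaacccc

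Of 25 members with a window, SREBF2 alone held the SRE letters, from -133 to -125 relative to the start, with a CCAAT box at -106 to -102; 1.09% of 27305 genes with a window held them. CCAAT boxes were found in 18 of the 25 members (72.0%), and 2 or more in 12 (48.0%), beside 42.4% and 15.6% of the 8701 tested genes that had a window. Of the 14 members with a window that fell with ZRANB1 siRNA, 12 held a CCAAT box, and of the other 11 members 6 did, among them EBP and NSDHL, which were not called. MVK carried 5 CCAAT boxes and FDPS 3, while ABCA1, INSIG2, PMVK, SCAP, NPC1, CYP51A1 and SREBF1 carried none. An E-box was found in 4 of the 25 members, SCAP, INSIG1, ABCA1 and SC5D, beside 7.73% of the 27305 genes. For the E-box and the SRE the share is over all genes with a window, a wider set than the tested genes. Some genes have several windows, and a match was counted in any of them. Such matches describe letters and not sites in use, and their absence from these windows says nothing about regulation elsewhere.

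**Figure D3:**
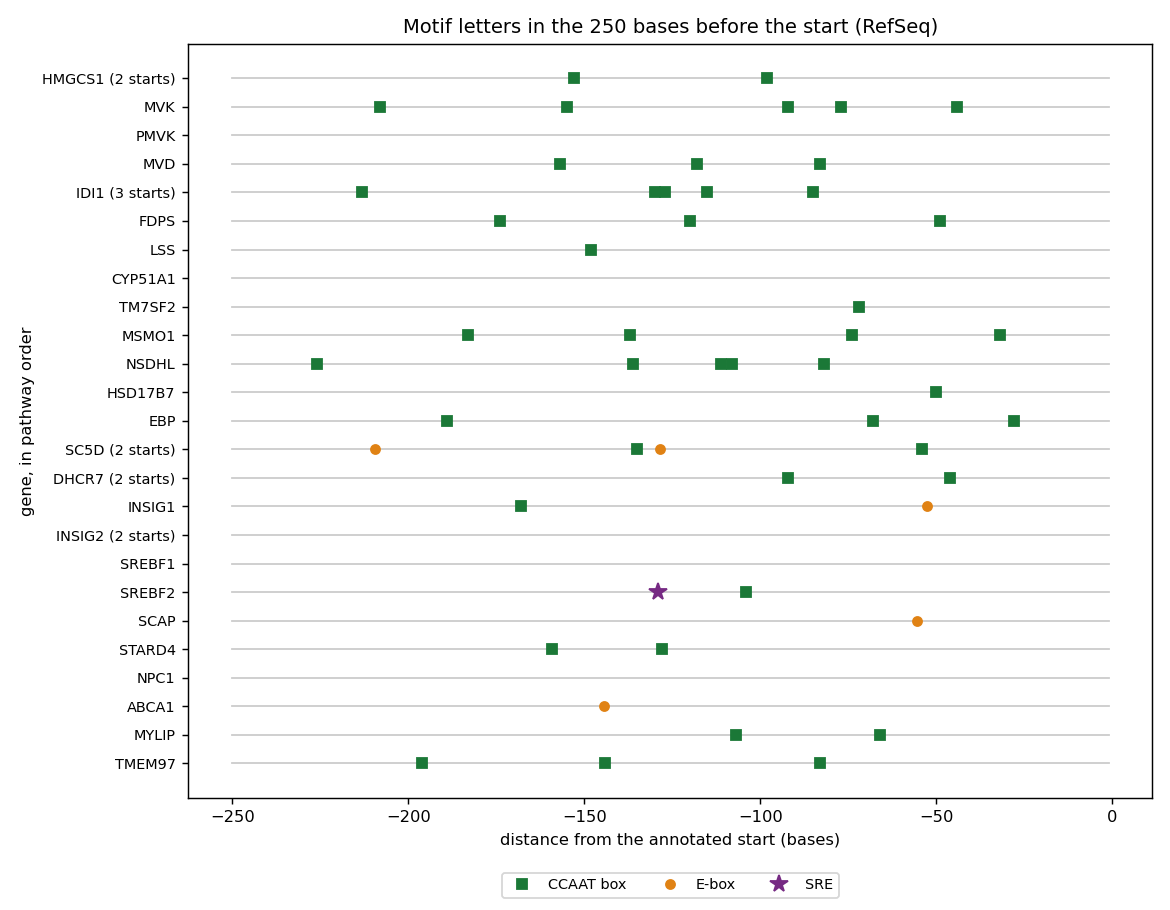
Position of the CCAAT box, E-box and SRE letters on either strand in the 250 bases before the annotated start of the 25 members with a RefSeq window, as distance from the start in bases. Genes with several starts have the matches of all their windows on 1 line; 18 genes show a CCAAT box and SREBF2 alone an SRE match.

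Genes of sterol transport and efflux did not share 1 direction. ABCA1, the pump that loads cholesterol onto apolipoproteins and a target of LXR, was at 1.66, 1.95 and 2.16 FPKM with EZH2 shRNA, against 0.758, 0.909 and 1.08 FPKM with scramble shRNA. It was at 1.80, 1.82 and 1.89 FPKM with ZRANB1 siRNA, against 0.938, 1.10 and 1.19 FPKM with scramble siRNA. Every treated library lay above its control range, at 210% of the control mean with EZH2 shRNA and 171% with ZRANB1 siRNA. The ABCA1 control means, 0.916 FPKM with scramble shRNA and 1.08 FPKM with scramble siRNA, lay near the filter of 1 FPKM. A filter at 5 FPKM left ABCA1 untested, and 0 members were then called higher with EZH2 shRNA. ABCA1 was the member that rose in both comparisons, with log2 fold changes of 0.61 (SE 0.10, adjusted p = 0.00634 by limma) and 0.45 (SE 0.10, adjusted p = 0.0125). The other pump, ABCG1, was listed at 0 in all libraries with EZH2 shRNA, at 0, 0.0286 and 0.0365 FPKM with scramble shRNA, at 0, 0 and 0.0258 FPKM with ZRANB1 siRNA and at 0, 0.0281 and 0.0416 FPKM with scramble siRNA. MYLIP, a further LXR target, averaged 6.06 ± 0.536 FPKM with EZH2 shRNA and 6.43 ± 0.291 FPKM with scramble shRNA, and 5.38 ± 0.321 FPKM with ZRANB1 siRNA and 5.91 ± 0.444 FPKM with scramble siRNA. It passed the test in neither comparison (adjusted p = 0.653 and 0.388).

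STARD4, a cytosolic sterol carrier, was at 9.04, 9.31 and 10.7 FPKM with EZH2 shRNA, against 6.34, 6.96 and 8.64 FPKM with scramble shRNA. It was at 14.4, 17.5 and 19.2 FPKM with ZRANB1 siRNA, against 19.3, 20.95 and 25.5 FPKM with scramble siRNA. The EZH2 shRNA libraries lay above their control and the ZRANB1 siRNA libraries below theirs, with little space between, and neither difference was called alone (log2 0.37, adjusted p = 0.143, and -0.34, adjusted p = 0.113, by limma). NPC1, which exports cholesterol from lysosomes, averaged 52.5 ± 2.42 FPKM with ZRANB1 siRNA and 62.2 ± 1.501 FPKM with scramble siRNA, and was called when these 6 values were fitted alone (adjusted p = 0.0392) but not with all groups in the fit (0.107). With EZH2 shRNA it averaged 26.8 ± 3.93 FPKM, against 26.7 ± 0.438 FPKM with scramble shRNA. TMEM97, a sterol-responsive membrane protein that binds NPC1, averaged 31.5 ± 2.101 FPKM with ZRANB1 siRNA and 42.0 ± 4.11 FPKM with scramble siRNA, and fell (adjusted p = 0.00466). TMEM97 was at 15.2 ± 0.496 FPKM with EZH2 shRNA and 16.6 ± 0.174 FPKM with scramble shRNA, which did not overlap but were not called apart (adjusted p = 0.415).

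Whether the 2 treatments differed in effect was tested as the ZRANB1 siRNA change minus the EZH2 shRNA change. The 2 comparisons also differ in delivery and in the level of their controls. These cannot be told apart from the RNA targeted. The difference was negative in 25 of the 27 members and in 49.7% of all tested genes, with a median of -0.35 on the log2 scale beside 0.0031 over all tested genes, and 5 members were called, all more negative with ZRANB1 siRNA, where 3.58% of all tested genes were called in that direction and 6.91% in the other. At an unadjusted p below 0.05 there were 14 members in that direction and 0 in the other, beside 10.4% and 13.5% of all tested genes. The called members were CYP51A1 (-0.82, SE 0.17, adjusted p = 0.00858 by limma), SREBF1 (-0.80, SE 0.19, adjusted p = 0.0223), STARD4 (-0.71, SE 0.19, adjusted p = 0.0364), MVK (-0.67, SE 0.19, adjusted p = 0.0452) and FDPS (-0.51, SE 0.10, adjusted p = 0.00809). CYP51A1 and FDPS kept the call in every fit run at that threshold, whereas MVK and STARD4 lost it with no filter on low values (adjusted p = 0.0724 and 0.0609). When 1 value was left out, between 2 and 7 members were called, and of 12 such fits SREBF1 was called in 7 (adjusted p up to 0.0588), STARD4 in 4 (up to 0.0892) and MVK in 2 (up to 0.104). For SQLE the difference was -0.03 with a 95% interval of -0.42 to 0.37, and for INSIG1 it was 0.26 (-0.07 to 0.58), so a difference between the comparisons was not shown for either gene. The effects on ABCA1 differed by -0.16 (-0.48 to 0.17).

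The scramble controls differed from each other in most members. With scramble siRNA, 21 of the 27 tested members were higher than with scramble shRNA, 1 was lower and 5 did not pass the test, where 50.6% of all tested genes were called, 25.5% higher and 25.1% lower. The controls did not overlap in 21 members that were higher and 1 that was lower, beside 30.8% (higher) and 29.2% (lower) of all tested genes. The median log2 difference of the members was 1.22, beside 0.011 over all tested genes. DHCR7 stood at 483% of the scramble shRNA mean, HMGCS1 at 476%, CYP51A1 at 443%, MVK at 432% and IDI1 at 405% (adjusted p by limma between 8.00e-08 and 1.16e-06). INSIG2 was the member called lower, at 39.2% of the scramble shRNA mean (adjusted p = 1.10e-04). PMVK, NSDHL, EBP, ABCA1 and MYLIP did not pass the test, and the call of SCAP held in 7 of 12 fits that left out 1 value.

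The libraries labelled ZRANB1 siRNA mostly stood below their own control and above the shRNA cells. In 23 of the 27 members their mean lay under the scramble siRNA mean and over the scramble shRNA mean, which was so for 35.3% of all tested genes. EZH2 shRNA had the lowest mean of the 4 groups in 14 members, beside 27.8% of all tested genes. These orders use the same scramble siRNA values as the ZRANB1 siRNA comparison and are given as a description. Delivery, any difference in culture and the sequence of the scramble RNA cannot be told apart between the controls.

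**Figure D4:**
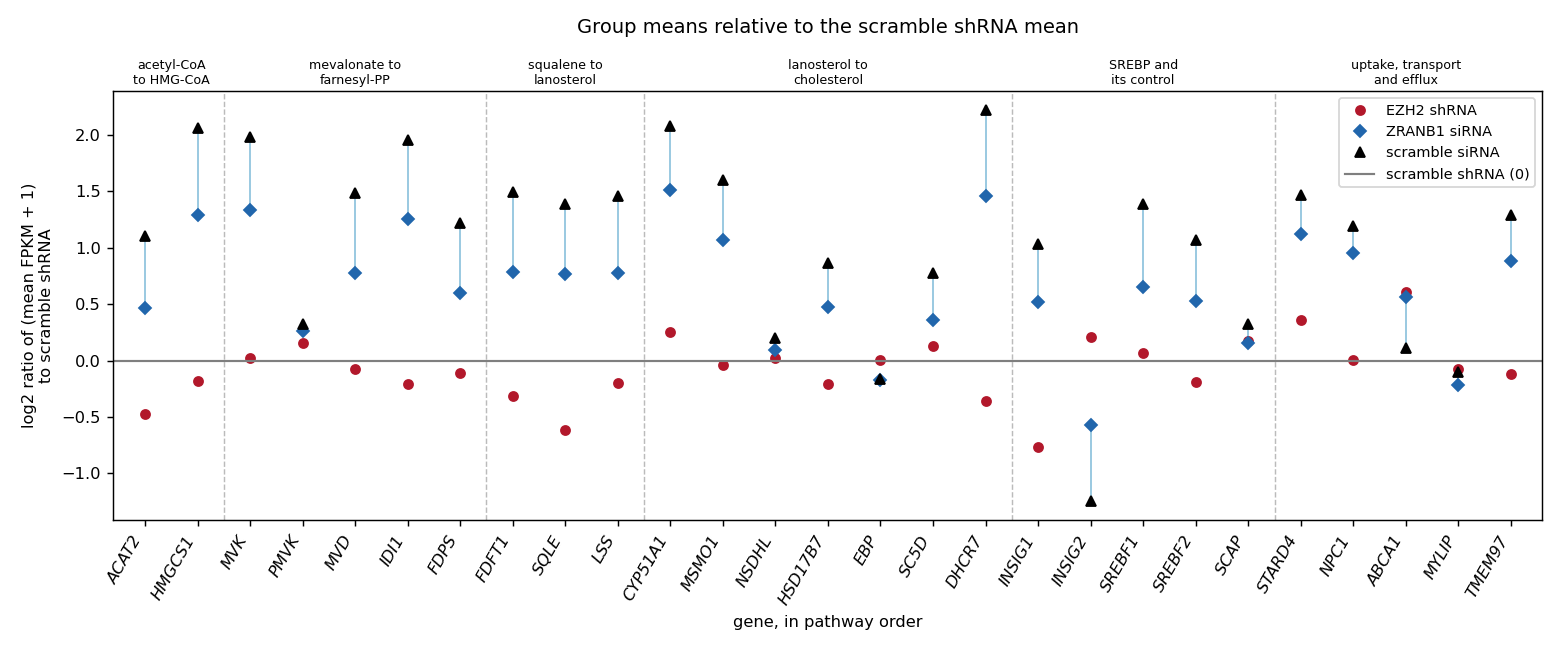
Log2 ratio of (mean FPKM + 1) of EZH2 shRNA, ZRANB1 siRNA and scramble siRNA to the scramble shRNA mean (line at 0), for the 27 tested genes in pathway order. Thin lines join ZRANB1 siRNA to scramble siRNA; most synthesis genes lie above 0 in both siRNA groups, with INSIG2, MYLIP and the synthesis gene EBP below 0 in both.

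Other genes of the pathway were read from 4 lists. Among all tested genes, 10.1% were called higher and 6.5% lower with ZRANB1 siRNA. With EZH2 shRNA these shares were 3.39% and 3.03%. Of 11 tested genes of the isoprenoid branch, which makes dolichol, ubiquinone and prenyl groups from the same precursors, 1 was higher and 0 lower with ZRANB1 siRNA, and 0 were called by limma with EZH2 shRNA, where 1 was lower at an unadjusted p below 0.05. The called gene was ICMT, the methyltransferase of prenylated proteins, at 58.9 ± 1.63 FPKM with ZRANB1 siRNA and 50.1 ± 1.42 FPKM with scramble siRNA. Medians of this list were -0.047 with ZRANB1 siRNA and -0.013 with EZH2 shRNA.

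Of 9 tested genes of SREBP processing and sterol-regulated degradation, 1 was higher and 2 were lower with ZRANB1 siRNA, and 1 was higher and 1 lower with EZH2 shRNA, around medians of -0.089 and -0.093. RNF145, a sterol-responsive ubiquitin ligase, rose to 52.4 ± 3.71 FPKM with ZRANB1 siRNA, against 37.8 ± 3.57 FPKM with scramble siRNA. The ubiquitin-conjugating enzyme gene UBE2G2 fell to 36.8 ± 0.837 FPKM, against 46.6 ± 1.95 FPKM, and FAF2, an adaptor of protein removal from the endoplasmic reticulum, fell to 29.9 ± 0.713 FPKM, against 38.9 ± 2.53 FPKM, in the same comparison. With EZH2 shRNA, C12orf49, which encodes a factor for SREBP cleavage, rose to 18.3 ± 0.670 FPKM, against 14.01 ± 0.522 FPKM with scramble shRNA, and the segregase gene VCP fell to 136 ± 5.21 FPKM, against 166 ± 3.64 FPKM.

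Of 18 tested genes of sterol trafficking, storage and oxysterols, 3 were higher and 2 lower with ZRANB1 siRNA, and 0 were higher and 2 lower with EZH2 shRNA (1 and 4 at an unadjusted p below 0.05 in limma), around medians of -0.016 and -0.023. CH25H, which makes an oxysterol that restrains SREBP and activates LXR, moved in opposite directions. Its controls stood at unlike levels, with means of 5.02 FPKM (scramble shRNA) and 0.0772 FPKM (scramble siRNA), and their part was not tested. CH25H averaged 2.82 ± 0.294 FPKM with EZH2 shRNA and 5.02 ± 0.321 FPKM with scramble shRNA, a fall of 0.66 on the log2 scale. It rose in the libraries labelled ZRANB1 siRNA, at 1.72, 1.80 and 3.06 FPKM, against 0.231 FPKM in 1 library and a listed 0 in the other two with scramble siRNA (adjusted p = 3.70e-05 by limma). The lipoprotein receptor gene VLDLR rose to 6.77 ± 0.442 FPKM with ZRANB1 siRNA, against 4.10 ± 0.552 FPKM, and its chaperone gene LRPAP1 rose to 6.54 ± 0.440 FPKM, against 3.42 ± 0.181 FPKM, with scramble siRNA. SCARB1, the receptor for high-density lipoprotein, fell to 24.5 ± 1.80 FPKM, against 31.9 ± 1.67 FPKM. NPC2, the lysosomal partner of NPC1, fell to 154 ± 1.98 FPKM with EZH2 shRNA, against 188 ± 5.14 FPKM with scramble shRNA.

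Fatty acid synthesis and desaturation, the other SREBP-driven pathway, fell in part alongside. With ZRANB1 siRNA 0 of 11 tested genes were higher and 7 lower, around a median of -0.43, beside 10.1% and 6.5% of all tested genes. With EZH2 shRNA 2 were higher and 1 was lower, around 0.042, beside 3.39% and 3.03%. The desaturase gene SCD fell to 110 ± 5.43 FPKM with ZRANB1 siRNA, against 225 ± 13.01 FPKM with scramble siRNA, a log2 fold change of -1.03. FADS2, FADS1 and ACSS2 fell as well, by 0.73, 0.43 and 0.51 on the log2 scale. With EZH2 shRNA SCD moved the other way, to 17.7 ± 0.213 FPKM, against 11.1 ± 0.695 FPKM with scramble shRNA, and ACSS2 rose by 0.27, while ACLY, which supplies acetyl-CoA, fell to 47.2 ± 2.62 FPKM, against 58.3 ± 0.194 FPKM. All of these were called by limma at an adjusted p below 0.05. The controls differed here too. With scramble siRNA, 8 of the 11 genes were called higher than with scramble shRNA and 0 lower, around a median of 0.91. Among all tested genes, 25.5% were called higher and 25.1% lower between the controls. SCD averaged 225 FPKM with scramble siRNA and 11.1 FPKM with scramble shRNA, and the part of the control level in its changes was not tested.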

How the data were processed

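The authors deposited FPKM values in 1 table of 26006 gene rows. TopHat2 2.1.1, SAMtools, Cufflinks 2.2.1, Cuffdiff 2.2.1 and the build hg19 are named in the submitters' processing notes. Options, annotation, strand setting and scaling: not given in the sources used here. A few very abundant RNAs lower the FPKM of all others. For the 440 symbols with several rows, only that of highest mean was used. All 15751 (EZH2 shRNA), 15773 (scramble shRNA), 15850 (ZRANB1 siRNA) and 15454 (scramble siRNA) rows with 3 different values in a group were in text order, so replicate numbers were not used.

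The 11929 genes averaging 1 FPKM or more were fitted as log2(FPKM + 1) in limma 3.58.1 (R 4.3.3), with a mean for each of the 4 groups, 8 residual degrees of freedom, a variance trend and Benjamini-Hochberg adjustment over all these genes. For 3 values against 3, the smallest p of an exact two-sided permutation test is 0.1, reached by each member whose groups did not overlap. The steps were run on simulated data with known changes and independent noise, which cannot cover samples that depend on each other. Settings varied were the pseudocount (0.1), the filter (none, or 5 FPKM), the groups fitted, the trend, a scaling factor per group, summing of rows, a fold change minimum and omission of 1 value. All members are described, and up to 4 called genes per further list and comparison, by adjusted p. Members and lists were chosen with earlier results of these data known. Figures used matplotlib 3.10.9.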

Additional observations from a re-analysis of the deposited data

Results flagged for a closer look

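The effects of the 2 treatments, each against its own scramble control, differed by the test of the difference (limma, adjusted over all tested genes) for 5 members. On the log2 scale, the ZRANB1 siRNA change minus the EZH2 shRNA change was -0.67 for MVK, -0.51 for FDPS, -0.82 for CYP51A1, -0.80 for SREBF1 and -0.71 for STARD4; each was more negative with ZRANB1 siRNA. Leaving out 1 value, the call held in 12 of 12 fits for FDPS and CYP51A1, 7 for SREBF1, 4 for STARD4 and 2 for MVK. STARD4 was called in neither comparison alone. The RNA targeted, the delivery and the level of the controls cannot be told apart in these differences.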

How the results depend on the processing

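The count of called members was 4 with EZH2 shRNA, 19 with ZRANB1 siRNA, 5 for the difference of effects and 22 between the scramble controls. It was 2 with the 6 values of the EZH2 shRNA comparison alone, and 3 for the difference with no filter on low values. Requiring a log2 fold change of 1 or more in size gave 0, 0, 0 and 19. The other settings kept each count within 1.5 times. With values put in random order within each row and group, leaving out 1 value gave 3 to 5, 15 to 20, 2 to 7 and 21 to 23 called members. No called change turned its sign in these settings, and those that did were near 0. With a pseudocount of 0.1 the difference for SQLE was 0.0541. With a scaling factor per group the log2 fold change was 0.00269 for NPC1 with EZH2 shRNA and 0.00364 for EBP with ZRANB1 siRNA. Without 1 value it ran, with EZH2 shRNA, from -0.0858 to 0.0971 for MVK, -0.20 to 0.0949 for MVD, -0.0992 to 0.11 for MSMO1, -0.0511 to 0.0626 for NSDHL, -0.0583 to 0.0442 for EBP, -0.000698 to 0.27 for SC5D, -0.0806 to 0.15 for SREBF1 and -0.081 to 0.12 for NPC1. With ZRANB1 siRNA it ran from -0.13 to 0.024 for PMVK and -0.0795 to 0.0506 for EBP, and for the difference from -0.11 to 0.11 for SQLE and -0.0833 to 0.0494 for EBP. The cause was not tested. No paired analysis was possible because the values of each group stood in text order within a row, so that a column number followed no library. Precision is limited by 3 values a group.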

Other observations

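MMAB, which is transcribed away from MVK out of the window shown for it and takes part in vitamin B12 metabolism, was looked up after the values of MVK were seen. It was at 6.82, 6.86 and 7.12 FPKM in the libraries labelled ZRANB1 siRNA, against 11.4, 12.3 and 12.6 FPKM with scramble siRNA (log2 fold change -0.72, adjusted p = 3.17e-05 by limma). With EZH2 shRNA it was at 3.85, 4.001 and 4.24 FPKM, against 3.12, 3.40 and 3.57 FPKM with scramble shRNA, which was not called (adjusted p = 0.111). The difference of effects was -0.93 (adjusted p = 1.01e-04), in the direction seen for MVK.

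IDI2, the neighbour and paralog of IDI1, was looked up in the same way. It averaged 4.06 ± 0.185 FPKM with ZRANB1 siRNA and 3.54 ± 0.180 FPKM with scramble siRNA (SD, n = 3 each; adjusted p = 0.354 by limma), where IDI1 fell.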
